A study of Mus musculus with 2 samples.

Results

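The genes described here are 36 mouse genes of antigen presentation, complement, tissue macrophages and the interferon response, read in gastrocnemius muscle by long-read RNA sequencing. They were taken by gene name from the deposited transcript tables, and 35 of the 36 had at least 1 read, out of 15622 annotated genes with reads in either library. The samples form 1 group of 2 libraries, replicate 2 and replicate 1, each from the calf muscle of a male B6CASTF1/J mouse aged 25 days. Such mice are F1 offspring of the C57BL/6J and CAST/EiJ strains, so that each carries a gene copy from a laboratory strain and a copy from a wild-derived strain, and the tables do not separate the copies. The labels number the males of the samples differently but give both the same donor record, so that the libraries may not come from separate animals, and a spread over n = 2 is one between libraries. They give no treatment and no control group. Each library was made from 2 µg of total RNA of whole tissue, with Ambion and Lexogen spike-in RNAs added.

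MHC class I molecules are pairs of a heavy chain and beta-2-microglobulin that carry peptides from inside the cell to its surface, and nearly every nucleated cell makes them. MHC class II molecules, the C1q chains and most of the receptors listed here are made mainly by macrophages and other antigen-presenting cells, which in muscle lie between the fibres. Interferon-induced genes are transcribed at a low level in resting tissue and strongly after interferon binds its receptor. In whole tissue, fewer cells of a type and less RNA per cell cannot be told apart.

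The libraries held 1703457 reads in replicate 2 and 1292409 in replicate 1, of which 1549606 and 1215785 were assigned to annotated genes. The unit of level, CPM, is a gene's share of those gene reads scaled to 1000000. A long read was counted once whatever its length, so that the level was not divided by transcript length. The annotated length is given beside genes whose levels are compared. The libraries differed by transcript length, as described below, and the part of length in the order of genes was not tested. A count of 0 allows for up to 3 reads, which is a level of 1.94 CPM for replicate 2 and of 2.47 CPM for replicate 1. The muscle identity of the tissue was plain: Ckm, the muscle creatine kinase, had 69403 CPM in replicate 2 and 68718 CPM in replicate 1. The libraries differed widely in Atp2a1, the fast-fibre calcium pump, which took 23536 CPM in replicate 2 and 151516 CPM in replicate 1.

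The 36 genes made up a small share of the RNA and had similar sums in both libraries. They held 704 reads in replicate 2 and 556 in replicate 1, or 454 and 457 CPM, a mean of 456 ± 2.13 CPM (SD, n = 2). Ifitm2, H2-D1 and Serping1 were the 3 members with 100 or more reads over both libraries. Another 15 members had fewer than 10 reads over both libraries. Among the groups of genes, the interferon-induced effectors had the highest sum, at 168 CPM in replicate 2 and 132 CPM in replicate 1, and the MHC class I chains followed with 95.5 and 100 CPM. The interferon transcription factors were lowest, with 3.87 CPM in replicate 2 and 2.47 CPM in replicate 1. In replicate 1, the sums of all members and of the effectors include 27 reads filed under Iigp1 that lay outside that gene. The same introns were filed under another gene in replicate 2, as described below. Without models outside the genes, the mean sum was 445 CPM over all members. Over the effectors it was 139 CPM, beside 150 CPM with them.

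**Figure D1:**
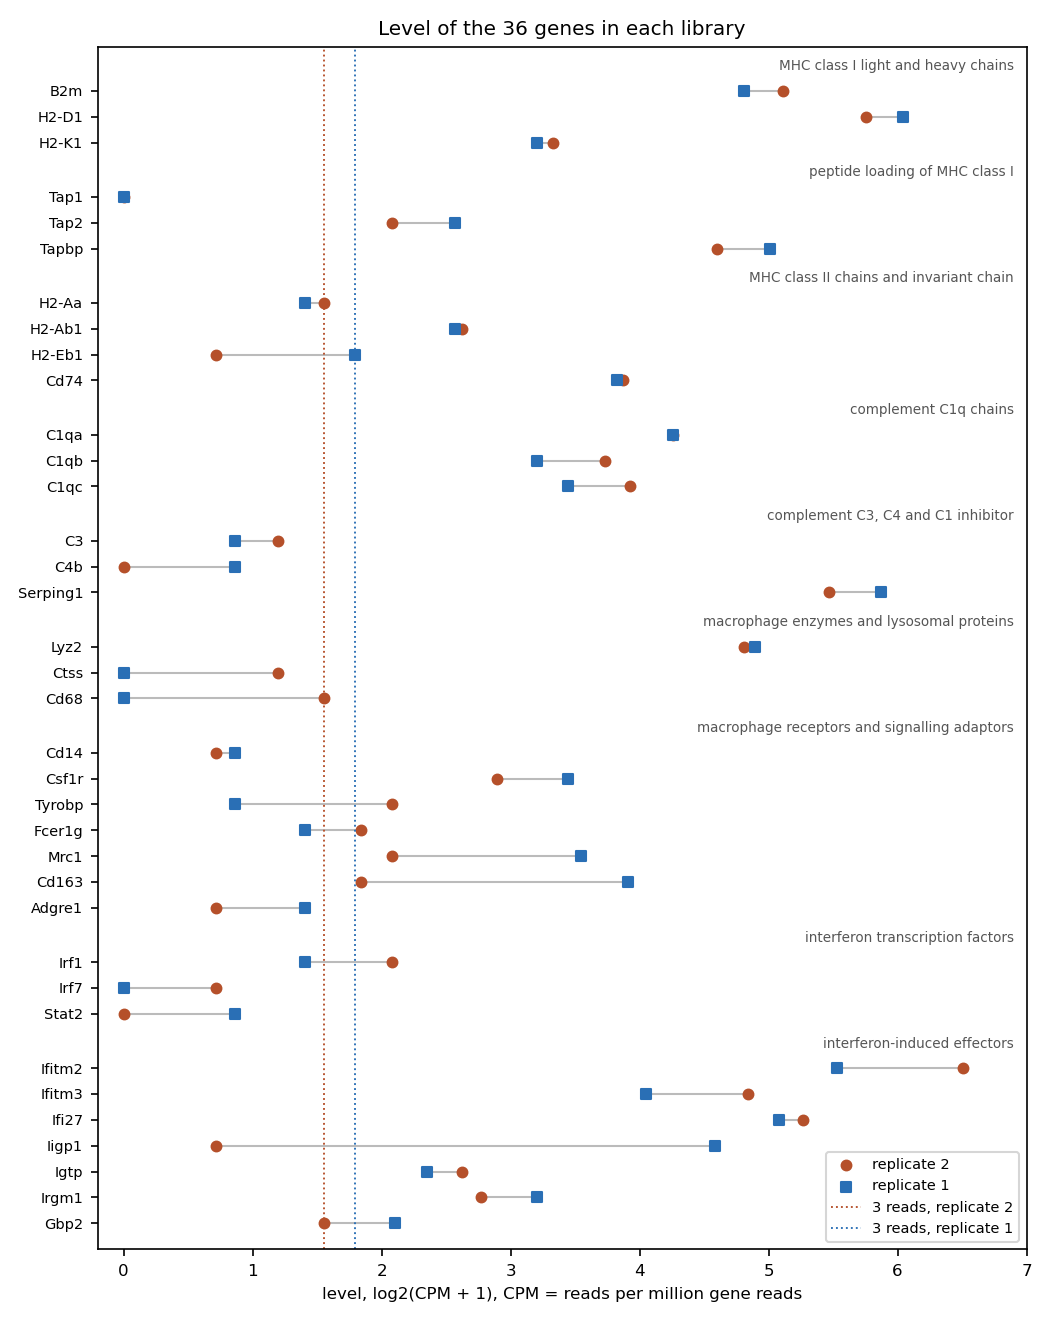
Level of each of the 36 genes in replicate 2 (circles) and replicate 1 (squares), as log2 of CPM + 1, grouped by role; the dotted lines mark 3 reads in each library. Of the 36 genes, 20 lie above the dotted lines in both libraries; Iigp1, Cd163 and Mrc1 lie further left in replicate 2 and Ifitm2 lies further right.

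Between the libraries, each gene's reads were set against all other gene reads with a two-sided Fisher's exact test, run over 8692 annotated genes with at least 10 reads and adjusted over all of them by the Benjamini-Hochberg method. The test compares these 2 libraries, not conditions, and covers counting error only. Of all genes tested, 43.3% passed an adjusted p of 0.05, 17.0% higher in replicate 2 and 26.3% lower. Of the 21 members tested, 4 passed, a share of 19.0%: Ifitm2 was higher in replicate 2, and Cd163, Mrc1 and Iigp1 were lower. With edgeR's exact test at an assumed biological coefficient of variation of 0.2, Cd163 and Iigp1 still passed and Ifitm2 and Mrc1 did not. At 0.4 none of the 4 did. Of all tested genes, 5.98% were higher and 9.49% lower at 0.2, and 0.0690% and 0.0230% at 0.4. The median log2 ratio of replicate 2 over replicate 1 was 0.00 over the tested members and -0.27 over all tested genes. The ratio lay within 2-fold for 85.7% of the tested members and 60.0% of all tested genes. With the libraries scaled by TMM factors the median of all genes moved by 0.25 on the log2 scale, and the members' median became 0.27.

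The MHC class I chains were read in both libraries at similar levels. H2-D1, a classical class I heavy chain (chr17:35262730-35267499, transcript of 2102 bases), had 82 reads in replicate 2 and 79 in replicate 1, or 52.9 and 65.0 CPM. B2m, which encodes beta-2-microglobulin, the light chain shared by class I molecules (chr2:122147686-122153083, 860 bases), had 52 and 33 reads, or 33.6 CPM in replicate 2 and 27.1 CPM in replicate 1. H2-K1, the other classical heavy chain gene (chr17:33996017-34000347, 1619 bases), had 14 reads in replicate 2 and 10 in replicate 1, a mean of 8.63 ± 0.572 CPM (SD, n = 2). In both libraries H2-D1 therefore stood above B2m and B2m above H2-K1. None of the 3 passed the test between the libraries, and their adjusted p-values in Fisher's exact test were 0.32 for H2-D1, 0.52 for B2m and 1.0 for H2-K1. In H2-K1 a single-exon genomic model of 90 bases at the gene's 3′ end held 7 of its 14 replicate 2 reads, and annotated transcripts held 4 reads in replicate 2 and 6 in replicate 1. Reads of related class I genes could be filed under H2-D1 or H2-K1 or the reverse, and the counts do not show how many were. Of the related genes, H2-T23 had 9 reads in replicate 2 and 3 in replicate 1, H2-T22 had 1 and 2, H2-M3 had 0 and 3, and H2-Q4 had 0 and 1. H2-Q1, H2-Q2, H2-Q6, H2-Q7 and H2-Q10 had no reads in either library.

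H2-D1 showed a recurring unannotated splice. The annotated transcript H2-D1-202 held 59 reads in replicate 2 and 62 in replicate 1, and a chain with the same introns but for a later start of exon 3 held 7 and 2. Over all H2-D1 models that show either junction, the inner acceptor was used in 8 of 79 reads in replicate 2, or 10.1% (exact Clopper-Pearson 95% interval 4.47 to 19.0), and in 3 of 74 in replicate 1, or 4.05% (0.844 to 11.4). The difference was not detectable at this depth (unadjusted p = 0.21, two-sided Fisher's exact test). Exon 3 of a class I heavy chain encodes the alpha-2 domain, which forms a wall of the peptide groove. The inner acceptor leaves out the first 114 bases of the exon, a multiple of 3, which lie inside the coding sequence at chr17:35263839-35263952. They are shown because they are what the 2 forms differ by; capitals mark the bases left out and lower case the start of the kept part, in mm10 on the plus strand, from the GENCODE M21 transcript.
H2-D1-202 exon 3: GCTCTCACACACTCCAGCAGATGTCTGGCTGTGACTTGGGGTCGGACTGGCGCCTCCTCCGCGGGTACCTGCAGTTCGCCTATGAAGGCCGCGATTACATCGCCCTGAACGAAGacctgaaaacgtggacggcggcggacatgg
The bases left out end in AG, the dinucleotide at which introns usually end. Class I genes differ between the parental strains, and the part of allele differences in these alignments was not tested.

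The peptide loading genes were uneven. Tapbp, which encodes tapasin, the chaperone that bridges the class I molecule to the peptide transporter (chr17:33915899-33929292, 2898 bases), had 36 reads in replicate 2 and 38 in replicate 1, or 23.2 and 31.3 CPM. Tap2, a subunit of that transporter (3442 bases), had 5 and 6 reads, or 3.23 CPM in replicate 2 and 4.94 CPM in replicate 1. Tap1, the partner subunit, had no read in either library, so that its level was at most about that of 3 reads. Neither Tapbp (adjusted p = 0.36, Fisher's exact test) nor Tap2 (0.68) passed the test between the libraries.

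Tapbp was read in 2 annotated forms of near equal abundance in both libraries. Tapbp-201 held 16 reads in replicate 2 and 15 in replicate 1, and Tapbp-206 held 12 and 11. The forms differ in their listed 5′ ends and at the start of exon 7, where acceptors 3 bases apart are used. Over all models with either junction, the first acceptor was used in 16 of 32 reads in replicate 2, or 50.0% (95% interval 31.9 to 68.1), and in 20 of 32 in replicate 1, or 62.5% (43.7 to 78.9). The shares did not differ beyond counting error (unadjusted p = 0.45, Fisher's exact test). The junction of exons 6 and 7 is printed for both forms, with the 3 bases found only in Tapbp-201 in capitals. Both lie on the plus strand of mm10 between chr17:33926503-33926644, in the coding part of the annotated transcripts.
Tapbp-201: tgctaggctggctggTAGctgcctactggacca
Tapbp-206: tgctaggctggctggctgcctactggacca

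MHC class II genes were low and their invariant chain clearly higher. Cd74, the invariant chain that guides class II molecules to the endosome (chr18:60803848-60812652, 1224 bases), had 21 reads in replicate 2 and 16 in replicate 1, or 13.6 and 13.2 CPM. The class II chains had few reads: H2-Ab1 had 8 and 6, H2-Aa had 3 and 2, and H2-Eb1 had 1 and 3, in replicate 2 and replicate 1. All 3 class II chains together thus had 12 reads in replicate 2 and 11 in replicate 1. Their transcripts are of similar length, 1128 bases for H2-Aa, 1212 for H2-Ab1 and 1669 for H2-Eb1. Cd74 (adjusted p = 1.0, Fisher's exact test) and H2-Ab1 (1.0) did not pass between the libraries, and H2-Aa and H2-Eb1 were below 10 reads.

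Cd74 was read in both of its known forms. Cd74-202 carries an extra coding exon of 192 bases, which in mouse and human gives the long invariant chain with a thyroglobulin domain that binds cathepsins. The extra exon was in 5 of 21 reads in replicate 2, or 23.8% (95% interval 8.22 to 47.2), and in 4 of 16 in replicate 1, or 25.0% (7.27 to 52.4). Nearly all Cd74 reads were annotated transcripts, with 20 of 21 in replicate 2 and 16 of 16 in replicate 1.

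The 3 C1q chains, which assemble in equal numbers into the recognition protein of the classical complement pathway, were read at levels close to each other. C1qa (chr4:136895917-136898803, 1040 bases) had 28 reads in replicate 2 and 22 in replicate 1, which is 18.1 CPM in each. C1qc (chr4:136889804-136893065, 1203 bases) had 22 and 12 reads, or 14.2 CPM in replicate 2 and 9.87 CPM in replicate 1. C1qb (chr4:136880129-136886187, 1088 bases) had 19 and 10 reads, or 12.3 CPM in replicate 2 and 8.23 CPM in replicate 1. The order C1qa, C1qc, C1qb was the same in both libraries, but C1qc at 12.0 ± 3.06 CPM and C1qb at 10.2 ± 2.85 CPM (SD, n = 2 each) did not differ beyond their spread. The genes lie side by side on the minus strand of chromosome 4. None passed between the libraries, with adjusted p-values in Fisher's exact test of 1.0 for C1qa, 0.52 for C1qc and 0.48 for C1qb. Annotated full-length transcripts held 24 of 28 and 19 of 22 C1qa reads, 18 of 22 and 9 of 12 C1qc reads, and 15 of 19 and 10 of 10 C1qb reads, in replicate 2 and replicate 1.

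Downstream complement components were nearly absent, and the inhibitor of C1 was among the strongest of the 36 genes. Serping1, which encodes C1 inhibitor, the serpin that blocks the C1 proteases (chr2:84765387-84775444, 1768 bases), had 67 reads in replicate 2 and 70 in replicate 1, or 43.2 and 57.6 CPM. The difference did not pass (log2 ratio -0.41, adjusted p = 0.18, Fisher's exact test). C3, the central complement protein, had 2 reads in replicate 2 and 1 in replicate 1, none of them on an annotated full-length transcript. C4b, which joins the classical pathway to C3 (5379 bases), had no read in replicate 2 and 1 in replicate 1, and its near-identical copy C4a had none. The longest C3 model read had 4156 bases, so that C3 and C4b are much longer than Serping1. The part of length in their low counts was not tested.

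Most Serping1 reads did not have the annotated first exon. The leading model in both libraries had 7 exons and held 42 of 67 reads in replicate 2, or 62.7%, and 55 of 70 in replicate 1, or 78.6%. The full-length coding transcript Serping1-201, with 8 exons, held 6 and 4 reads. On this gene of the minus strand, exon 1 of Serping1-201 lies at chr2:84775363-84775404 and exon 2 at chr2:84774740-84774814. The 7-exon model is listed from 84775128, inside intron 1, and runs without a break into exon 2. That start is the listed start of Serping1-203, an annotated processed transcript, whose first exon spans 389 bases at chr2:84774740-84775128. Over all models with either structure, the listed first exon reached beyond exon 2 in 45 of 51 reads in replicate 2, or 88.2% (95% interval 76.1 to 95.6), and in 57 of 61 in replicate 1, or 93.4% (84.1 to 98.2). The deposited models carry listed ends, not the ends of each read, so that where each molecule began was not measured. Reads that began inside exon 2 and reads that began in intron 1 could therefore not be told apart. The model is filed among incomplete matches, so that its reads do not count as annotated transcripts.

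Of the macrophage enzymes, Lyz2 was read steadily and the other genes hardly at all. Lyz2, the lysozyme of macrophages and other myeloid cells (chr10:117277331-117282321, 1316 bases), had 42 reads in replicate 2 and 35 in replicate 1, or 27.1 and 28.8 CPM (adjusted p = 0.89, Fisher's exact test). Its paralog Lyz1 had no read in replicate 2 and 1 in replicate 1. Cd68, a lysosomal glycoprotein of macrophages, had 3 reads in replicate 2 and 0 in replicate 1. Ctss, the cathepsin that trims the invariant chain, had 2 and 0. All 5 of these reads were full-length annotated transcripts.

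The 7 macrophage receptors and adaptors had a sum of 19.4 CPM in replicate 2, against 39.5 CPM in replicate 1, and the 2 that passed the test, Cd163 and Mrc1, were lower in replicate 2. Cd163, the scavenger receptor for haemoglobin bound to haptoglobin (chr6:124304656-124330527, 4404 bases), had 4 reads in replicate 2 and 17 in replicate 1, a log2 ratio of -2.06 (adjusted p = 0.0026, Fisher's exact test). Mrc1, the mannose receptor of resident macrophages (chr2:14229392-14332057, 5374 bases), had 5 and 13 reads, a log2 ratio of -1.47 (adjusted p = 0.042). The Mrc1 call ended under 8 of 10 alternatives, among them TMM scaling, where its log2 ratio was -1.22 and its adjusted p 0.12, whereas Cd163 passed under 9 of the 10. Csf1r, the receptor for the macrophage growth factor CSF1 (chr18:61100598-61132149, 4701 bases), had 10 reads in replicate 2 and 12 in replicate 1, or 6.45 and 9.87 CPM (adjusted p = 0.52).

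These 3 genes, all with transcripts above 4000 bases, had few full-length reads in replicate 2. Annotated full-length transcripts held 2 of 4 Cd163 reads, 2 of 10 Csf1r reads and 0 of 5 Mrc1 reads in replicate 2. In replicate 1 they held 12 of 17, 10 of 12 and 3 of 13. Together that is 21.1% in replicate 2 and 59.5% in replicate 1, beside 34.3% and 53.6% over all tested genes of that length; the difference itself was not tested. Counted on annotated transcripts alone, Csf1r was also lower in replicate 2, with a log2 ratio of -2.25 (adjusted p = 0.014, Fisher's exact test). In that setting 37.6% of all tested genes were lower and 13.4% higher. Csf1r passed under 2 of the 10 alternatives. In replicate 1, 2 Mrc1 reads with 40 exons each ran past the gene end to 14494975. The remaining receptors and adaptors had 6 reads or fewer over both libraries: Tyrobp, the signalling adaptor of many myeloid receptors, had 5 in replicate 2 and 1 in replicate 1, Fcer1g, the Fc receptor gamma chain, had 4 and 2, Adgre1, the F4/80 antigen, had 1 and 2, and Cd14, the co-receptor for lipopolysaccharide, had 1 and 1.

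Ifitm2, an interferon-induced membrane protein, had the highest mean level of the whole set. The gene restricts the entry of enveloped viruses (chr7:140954837-140955987, 655 bases) and had 139 reads in replicate 2 and 55 in replicate 1, or 89.7 and 45.2 CPM. Its log2 ratio was 0.97 (adjusted p = 5.1e-05, Fisher's exact test). Ifitm3, its neighbour with the same known role (chr7:141009586-141010770, 678 bases), had 43 and 19 reads, or 27.7 CPM in replicate 2 and 15.6 CPM in replicate 1. Its log2 ratio of 0.79 did not pass (adjusted p = 0.083). Scaled by TMM factors, Ifitm3 passed with a log2 ratio of 1.07 (adjusted p = 0.015, Fisher's exact test). With that scaling 22.5% of all tested genes were higher in replicate 2. Both genes were read almost wholly as their annotated 2-exon transcripts, in 138 of 139 and 55 of 55 reads for Ifitm2 and in 43 of 43 and 19 of 19 for Ifitm3, in replicate 2 and replicate 1. The third family member listed in this cluster, Ifitm1, had 0 and 1 reads.

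Ifi27, a further interferon-induced gene (chr12:103434211-103440239, 977 bases), had 58 reads in replicate 2 and 40 in replicate 1, or 37.4 and 32.9 CPM (adjusted p = 0.67, Fisher's exact test). It was the most diverse of the interferon genes in structure, with 5 annotated transcripts among its reads. Ifi27-205, with an alternative coding exon of 135 bases at chr12:103437390-103437524, held 36 reads in replicate 2 and 22 in replicate 1. Ifi27-201, without that exon, held 10 and 6. The exon was included in 40 of 51 informative reads in replicate 2, or 78.4% (95% interval 64.7 to 88.7), and in 26 of 32 in replicate 1, or 81.2% (63.6 to 92.8). In 4 of the 40 and 2 of the 26 reads with the exon, a later acceptor left only its last 75 bases, in an unannotated combination of known sites seen in both libraries. The exon is printed because it holds all 3 choices; capitals mark the part kept by the later acceptor, on the plus strand of mm10, from the GENCODE M21 transcript.
Ifi27-205 alternative exon: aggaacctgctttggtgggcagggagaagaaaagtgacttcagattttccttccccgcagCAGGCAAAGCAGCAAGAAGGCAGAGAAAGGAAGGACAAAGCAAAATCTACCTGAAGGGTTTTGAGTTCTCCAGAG
The lower-case part also ends in AG. Both lengths are multiples of 3.

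The interferon-induced GTPases Irgm1, Igtp and Gbp2, which act against microbes inside vacuoles, were low in both libraries. Irgm1 (2259 bases) had 9 reads in replicate 2 and 10 in replicate 1, Igtp (2022 bases) had 8 and 5, and Gbp2, a guanylate-binding protein (2516 bases), had 3 and 4. Irgm1 (adjusted p = 0.63, Fisher's exact test) and Igtp (0.87) did not pass. Outside the 36 genes, Irgm2, a near relative of Irgm1, had 8 reads in replicate 2 and 7 in replicate 1. Gbp7, of the same family as Gbp2, was lower in replicate 2, with 5 reads there against 25 in replicate 1 (log2 ratio -2.35, adjusted p = 1.0e-04, Fisher's exact test). Of the interferon transcription factors, Irf1 had 5 and 2 reads, Irf7 had 1 and 0, and Stat2 had 0 and 1, so that none could be tested.

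Iigp1, another interferon-induced GTPase (chr18:60376027-60392634), had the lowest log2 ratio of the tested members, and this ratio rested on how reads were named. It had 1 read in replicate 2 and 28 in replicate 1, a log2 ratio of -3.87 (adjusted p = 1.6e-08, Fisher's exact test). Of the 28 replicate 1 reads, 27 lay wholly outside the annotated gene, with the nearest base 46684 bases past its end. They covered BC023105, an annotated processed pseudogene at chr18:60441765-60442980. The same introns were read in replicate 2 under the name BC023105. The intron at chr18:60439499-60441733 had 12 reads in replicate 2, all filed under BC023105, and 18 in replicate 1, all filed under Iigp1. The intron at chr18:60439687-60441733 had 4 reads in replicate 2 and 7 in replicate 1, with the same division of names. With both names counted together, an alternative added after the values were seen, there were 20 reads in replicate 2 and 29 in replicate 1, with a log2 ratio of -0.84 that did not pass (adjusted p = 0.088). Only 1 read in each library began in the annotated Iigp1 gene, and the replicate 1 read of these was spliced on to the BC023105 locus.

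**Figure D2:**
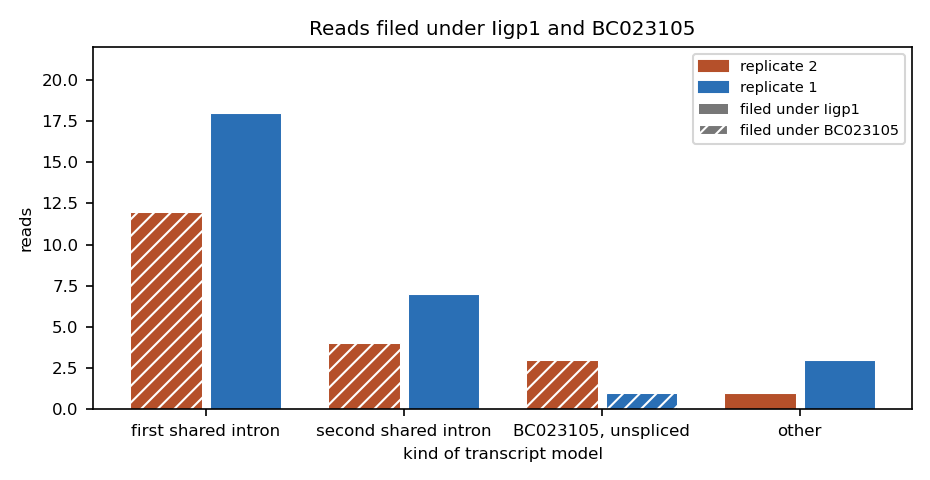
Reads filed under Iigp1 (plain bars) and BC023105 (hatched bars) in replicate 2 and replicate 1, by the kind of transcript model; bar height is the number of reads. The shared introns have 12 and 4 reads in replicate 2, all under BC023105, and 18 and 7 in replicate 1, all under Iigp1.

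Promoters were searched for the 2 motifs through which interferons are known to act. The interferon-stimulated response element was searched as TTTC, 2 free bases and TTTC, and the gamma-activated site as TTC, 3 free bases and GAA, on both strands, in the 250 bases before each RefSeq gene start (GRCm38.p6, the same assembly as mm10). Of the 36 genes, 24 were in the promoter table, with 26 promoters. A member was counted once if any of its promoters matched, whereas the share over all promoters counts each promoter. The response element was present in 7 of the 24, or 29.2%, beside 2.98% of all 32851 promoters. Those 7 were B2m, Ctss, Stat2, Ifitm2, Igtp, Irgm1 and Gbp2. The gamma-activated site was present in 2 of the 24, Irf1 and Igtp, or 8.33%, beside 7.02% of all promoters. These are letter matches, and the data hold no measure of binding. The 36 genes were chosen to include interferon-induced genes, so that the shares are a description and not a test. The stretches around matches in a strongly read gene, in Ifitm2, and in 3 lower genes are printed 5′ to 3′ on the strand of each gene, with the motif in capitals. The B2m stretch is at chr2:122147533-122147572, Ifitm2 at chr7:140955983-140956022 on the minus strand, Gbp2 at chr3:142620589-142620628, Igtp at chr11:58199507-58199546 and Irf1 at chr11:53769909-53769947.
B2m, response element: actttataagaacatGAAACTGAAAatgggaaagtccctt
Ifitm2, response element: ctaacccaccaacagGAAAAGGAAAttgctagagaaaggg
Gbp2, response element: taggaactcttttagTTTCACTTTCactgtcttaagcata
Igtp, response element: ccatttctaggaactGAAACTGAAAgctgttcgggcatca
Irf1, gamma-activated site: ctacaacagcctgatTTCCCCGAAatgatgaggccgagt
In Igtp a gamma-activated site lies next to the response element and shares part of the printed stretch. Among the 7 genes with the response element, the levels spanned nearly the whole range of the set, with 139 and 55 reads for Ifitm2 and 0 and 1 for Stat2, in replicate 2 and replicate 1.

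The difference between the libraries ran with transcript length in the members as it did in all genes. The 4 members with transcripts under 1000 bases, Ifitm2, Ifitm3, B2m and Ifi27, had a median log2 ratio of 0.54, beside 1.03 over all 968 tested genes of that length. The 8 members from 1000 to 2000 bases had a median of 0.05, beside 0.24. The 5 members from 2000 to 4000 bases had a median of -0.41, beside -0.64. For the 3 members of 4000 bases or more it was -1.47, beside -1.04. The 4 shortest lay above 0 and the 3 longest below it. The part of length in the calls for Ifitm2, Cd163 and Mrc1 was not tested.

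**Figure D3:**
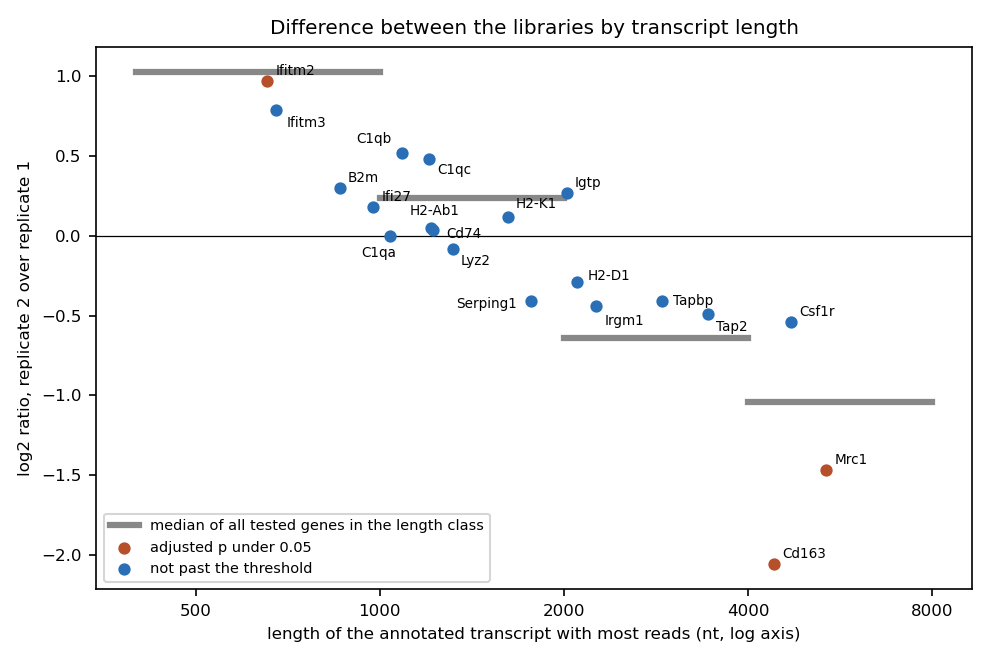
Log2 ratio of replicate 2 over replicate 1 against the length of the annotated transcript with most reads, for the 20 tested members that have one; grey bars give the median of all tested genes in each length class. Members run from above 0 at short lengths to below 0 at long ones, as the medians of all genes do, from 1.03 to -1.04.

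The share of the members' reads on annotated transcripts was higher in replicate 2, and the libraries lay closer together without Serping1 and Iigp1. The share was 77.0% in replicate 2 (95% interval 73.7 to 80.1) and 68.7% in replicate 1 (64.7 to 72.5), beside 70.6% and 65.8% over all annotated genes. Serping1 had 6 annotated reads of 67 in replicate 2 and 4 of 70 in replicate 1, and Iigp1 had 0 of 1 and 0 of 28. Without these genes, an alternative added after the values were seen, the share was 84.3% in replicate 2 (81.2 to 87.0) and 82.5% in replicate 1 (78.7 to 85.9). Without Iigp1 alone it was 77.1% in replicate 2 (73.8 to 80.2) and 72.3% in replicate 1 (68.3 to 76.1). Taken per gene with at least 10 reads in a library, the median share was 82.3% over 14 members in replicate 2 and 79.2% over 18 in replicate 1. Over all genes the order of these medians was the reverse of the pooled one, with 66.7% in replicate 2 and 80.0% in replicate 1, and replicate 2 was also lower in each of the 4 length classes of all tested genes. Incomplete matches, models whose introns are a run of those of an annotated transcript, held 14.6% of the members' reads in replicate 2 and 20.9% in replicate 1. Over all genes the order of the libraries was the other way round for this class, with 15.6% in replicate 2 and 9.28% in replicate 1. Of the incomplete matches, Serping1 held 48 of 103 in replicate 2 and 63 of 116 in replicate 1. Models with a new splice site held 2.56% of the members' reads in replicate 2 and 6.83% in replicate 1, beside 4.28% and 17.3% over all genes. Of the 38 such reads in replicate 1, 21 were filed under Iigp1, whose replicate 2 counterparts carry the name BC023105 and are not counted here. Without Iigp1 the shares were 2.56% in replicate 2 and 3.22% in replicate 1. Genomic models, all of a single exon among the members, held 4.69% in replicate 2 and 0.719% in replicate 1, beside 6.86% and 2.30%. The libraries did not file single-exon models alike. Those of Serping1 were genomic in replicate 2, with 9 reads, and incomplete matches in replicate 1, with 3. C1qc (4 and 1 reads) and Lyz2 (3 and 2) were divided in the same way. Those of Ifi27 were incomplete matches in replicate 2, with 3 reads, and genomic in replicate 1, with 1, but did not all lie at the same place. Those of Csf1r and Irgm1 were incomplete matches in both libraries, and those of Tapbp and Cd163 were genomic in both. The part of such filing in the shares of these 2 classes was not tested.

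**Figure D4:**
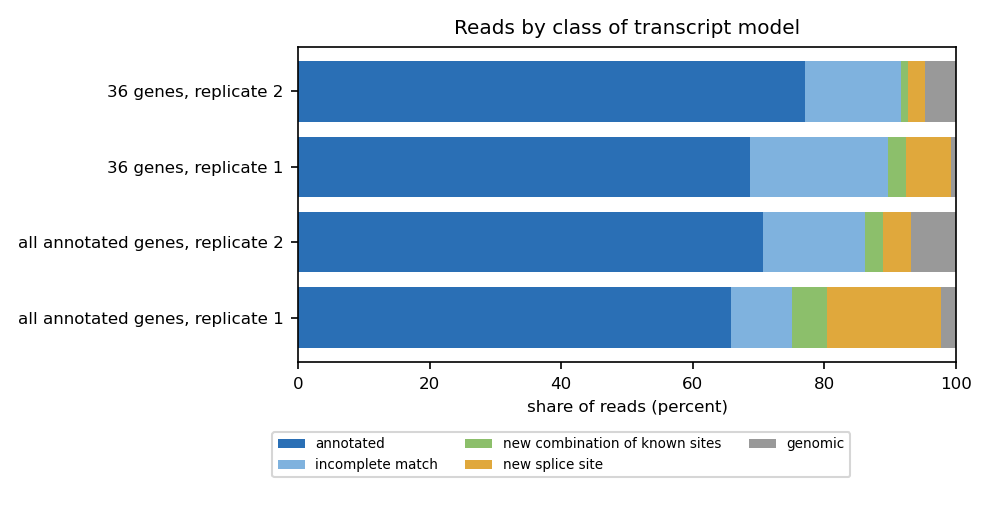
Share of reads in each class of transcript model, in percent, for the 36 genes and for all annotated genes in replicate 2 and replicate 1. Annotated transcripts take 77.0% and 68.7% of the members' reads, and new splice sites take less of the members' reads than of all reads in both libraries.

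No difference in the use of transcript forms was found between the libraries in the members deep enough to test. The leading model of each gene was tested against its other complete models over 4023 genes with at least 10 such reads in each library, of which 1.72% passed by the Fisher test. Of the 7 members tested, 0 passed at the adjusted threshold and 1 had an unadjusted p under 0.05. That gene was C1qc, whose leading transcript held 18 of 18 reads in replicate 2 and 8 of 11 in replicate 1 (adjusted p = 0.60, Fisher's exact test). H2-D1-202 held 59 of 73 such reads in replicate 2, or 80.8% (95% interval 69.9 to 89.1), and 62 of 67 in replicate 1, or 92.5% (83.4 to 97.5), with an adjusted p of 0.62. Unannotated chains of the members were mostly seen once: of 43 multi-exon chains outside the incomplete class, 34 had 1 read in all and 3 were found in both libraries. Those 3 were the H2-D1 chain with the inner acceptor, the Ifi27 chain with the later acceptor and a 6-exon Serping1 chain.

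**Figure D5:**
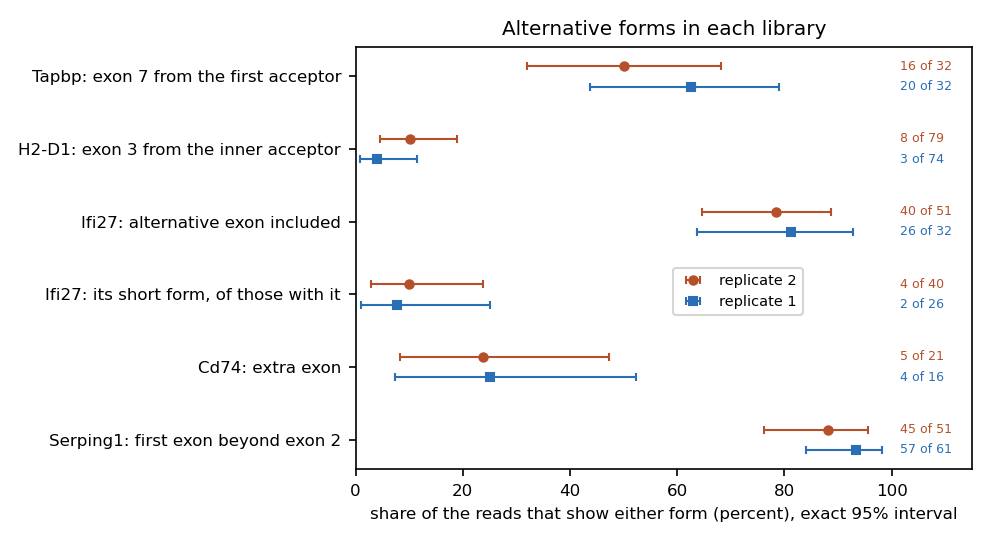
Share of reads that use each alternative form, in percent, with exact 95% intervals, in replicate 2 (circles) and replicate 1 (squares); the numbers at the right give the reads with the form of all informative reads. The intervals of the libraries overlap in all 6 rows, with Serping1 at 88.2% and 93.4% and H2-D1 at 10.1% and 4.05%. The Serping1 row rests on listed starts of models, not on the starts of reads.

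Other genes of the same pathways showed which neighbours of the 36 were read. Of 24 genes listed as other antigen presentation genes, 19 had reads and 13 were tested, with 2 higher and 1 lower in replicate 2. For this list and those that follow, the shares over all tested genes were 17.0% higher and 26.3% lower. The most abundant was H2-Ke6, with 134 CPM in replicate 2 and 26.3 CPM in replicate 1. Named for its place in the MHC region, it encodes a steroid dehydrogenase and was listed by its name alone. It is not an antigen presentation gene but is counted here, among the higher ones. The lysosomal protease Ctsl followed with 62.6 and 75.7 CPM. Psme2, a proteasome activator subunit, was the other gene that was higher, and the chaperone Canx was lower. Ciita and Nlrc5, the master regulators of class II and class I genes, had no reads. Of 24 other complement genes, 21 had reads and 10 were tested, with 0 higher and 1 lower, the C1 protease gene C1s1. The most abundant complement gene there was Cd59a, an inhibitor of the membrane attack complex, with 42.6 CPM in replicate 2 and 32.9 CPM in replicate 1. Of 41 other interferon response genes, 34 had reads and 16 were tested, with 0 higher and 6 lower. Besides Gbp7, the lower ones were the receptor chains Ifngr1 and Ifngr2, the kinases Jak1 and Jak2 and the transcription factor Irf2. Ifngr2 was the most abundant, with 91.6 CPM in replicate 2 and 164 CPM in replicate 1. The list's sum was 219 CPM in replicate 2 and 405 CPM in replicate 1, most of it these receptor chains and kinases. Of 34 other macrophage genes, 25 had reads and 10 were tested, with 3 higher (Apoe, Cd63 and Pf4) and 2 lower (Ctsb and Ctsd). Pf4 had 28 reads in replicate 2 and 9 in replicate 1 (log2 ratio 1.18, adjusted p = 0.045, Fisher's exact test), the opposite direction to Cd163 and Mrc1. The list's sum was 1379 CPM in replicate 2 and 1429 CPM in replicate 1. Most of it was the lysosomal proteases Ctsb and Ctsd and the lipid carrier Apoe, which many cell types make. Ptprc, the pan-leukocyte marker, had no reads in either library.

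Most markers of other blood cells had no reads, with Ighm and Zbtb46 as exceptions. Of 14 T and NK cell markers, 12 had no reads, among them Cd3e, Cd4 and Cd8a, and the list's sum was 3.23 CPM in replicate 2 and 2.47 CPM in replicate 1. Of 10 neutrophil markers 9 had none, and the sum was 0 and 0.823 CPM. Of 8 B cell markers 7 had none, while Ighm, the constant region of the IgM heavy chain, had 217 reads in replicate 2 and 126 in replicate 1, or 140 and 104 CPM, more than any of the 36 genes. It was higher in replicate 2 (log2 ratio 0.43, adjusted p = 0.020, Fisher's exact test). Of 8 dendritic cell markers 7 had none. Zbtb46, a transcription factor of dendritic cells and endothelium, was higher in replicate 2, with 37 reads there against 7 in replicate 1 (log2 ratio 1.88, adjusted p = 4.9e-04). Of 7 mast cell markers 4 had reads, with a sum of 7.10 CPM in replicate 2 and 7.40 CPM in replicate 1. All 9 fibroblast markers were read, and 5 of them, Col1a1, Col1a2, Col3a1, Dcn and Gsn, were lower in replicate 2, beside 26.3% of all tested genes. The other 4 did not pass, with log2 ratios of -0.13 for Lum, -0.11 for Pi16, 0.11 for Pdgfra and 0.66 for Dpt. The list's sum was 1402 CPM in replicate 2 and 6151 CPM in replicate 1, most of it Col1a1, Col3a1 and Gsn. All 8 endothelial markers were read too, with a median log2 ratio of -0.69, and Tie1 and Cav1 were lower and Fabp4 higher in replicate 2. Their sum was 245 CPM in replicate 2 and 183 CPM in replicate 1, and without Fabp4, left out after the values were seen, it was 69.0 CPM in replicate 2 and 120 CPM in replicate 1. The part of the makeup of the tissue pieces in the differences for Cd163 and Mrc1 was not tested.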

How the data were processed

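RNA of 2 gastrocnemius samples was sequenced as long reads. The deposited tables give whole read counts per transcript model, made by the authors for each library separately, with reads placed on mm10 and GENCODE M21 per the file headers and accompanying notes; the aligner, its version, filters and strand handling are not named in any source at hand. Model classes, exon numbers and lengths are the authors'. Counts were summed per annotated gene and divided by the library's gene reads to give CPM. Models were placed by the deposited coordinates and matched between libraries by intron chain; a model that does not overlap its M21 gene was set apart. Log2 ratios are of CPM + 1, replicate 2 over replicate 1. Fisher's exact tests ran over all genes with at least 10 reads (SciPy 1.17.1, Python 3.11.15), with Benjamini-Hochberg adjustment at 0.05, and intervals are exact 95% Clopper-Pearson intervals for counting error only; reads without molecular identifiers are not independent molecules. Alternatives used edgeR 4.0.16 and DESeq2 1.42.0 in R 4.3.3. The test was tried on simulated libraries with counting error only. It called 20 of 49 genes set to 2-fold and 6 of 45 set to 0.5-fold. At 4-fold it called 43 of 50 and at 0.25-fold 28 of 45, and of 8550 unchanged genes it called 3. A gene that did not pass may therefore still differ by 2-fold. All 36 members were accounted for, and those with at least 20 reads inside the gene are given per library; of other lists the most abundant genes, and those singled out after their values were seen, are named. The members, gene lists and length classes were chosen with earlier results of these data known. Sequences are from GENCODE M21 transcripts and, for promoters, from RefSeq on GRCm38.p6. The labels number the males differently but give both the same donor record, so the spread between libraries may be technical.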

Additional observations from a re-analysis of the deposited data

Results flagged for a closer look

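Reads on the strand opposite to the 36 genes were left out of all comparisons above. Over the spans of the members there were 20 such reads in replicate 2 and 5 in replicate 1, at 9 of the 36 genes, and 2 genes exceeded the 3 reads that a count of 0 allows. B2m had 5 antisense reads in replicate 2 and 1 in replicate 1. All of them belonged to a spliced model of 398 bases whose 1 intron is the first intron of B2m itself, and the gene's own strand had 52 and 33 reads. Mrc1 had 5 antisense reads in replicate 2 and 1 in replicate 1, in unspliced models, beside 5 and 13 reads on its own strand. No source at hand says how strand was assigned, and the origin of these reads was not tested.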

How the results depend on the processing

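No paired analysis was possible because all samples form 1 group. Of the members' calls, the number higher in replicate 2 was 1, beside 17.0% of all tested genes. It was 2 without incomplete and genomic models, with TMM factors and with DESeq2 size factors, where Ifitm3 joined Ifitm2. The share of all tested genes that were higher was 17.2%, 22.5% and 23.1% in these settings. The number was 0 with edgeR's exact test at an assumed biological coefficient of variation of 0.2 or 0.4. There, 1 and 0 members had an unadjusted p under 0.05, and 5.98% and 0.0690% of all tested genes were higher. The number lower was 3, beside 26.3% of all tested genes. It was 2 or 3 under 9 of 10 alternatives, where the share of all tested genes ran from 9.49% to 37.6%. It was 0 with edgeR's exact test at 0.4, where 2 members had an unadjusted p under 0.05 and 0.0230% of all genes were lower. The genes behind this number changed. Of the 10 alternatives, Cd163 was called lower under 9, Iigp1 under 6 and Mrc1 under 2, and Csf1r, which had not passed, under 2. Mrc1 had too few reads to be tested under 3 of the 8 that lost it. Iigp1 was not called on annotated transcripts alone, without models outside the gene, counted together with BC023105, or at 0.4. The summed level of all members, 456 CPM, was 454 to 457 CPM with either replicate left out, 445 CPM without models outside the genes, 332 CPM on annotated transcripts alone and 437 CPM over all mouse reads. The share on annotated transcripts, 72.8% on average, was 68.7% to 77.0% with either replicate left out, 74.7% without Iigp1 and 83.4% without Iigp1 and Serping1. Directions turned for members that had not passed: with DESeq2 size factors H2-D1 became 0.05, C1qa 0.33 and Lyz2 0.25; with TMM factors C1qa became 0.27 and Lyz2 0.20; on annotated transcripts alone H2-K1 became -0.87, Cd74 -0.12 and Serping1 0.11, and the leading share of Tapbp differed by -0.549 and that of Ifi27 by -0.862 percentage points. In the main analysis the log2 ratio was -0.29 for H2-D1, 0.00 for C1qa and -0.08 for Lyz2. The median of all tested genes moved by 0.25 with TMM factors and by 0.31 with DESeq2 size factors. The cause of the turns was not tested. Of 49 log2 ratios of the named members on annotated transcripts alone or with TMM or DESeq2 scaling, 36 kept direction and side of the threshold; another pseudocount cannot change either. Of the 36 members, 15 had under 10 reads and were not tested.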
